A study of Homo sapiens with 12 samples.

Results

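The MYC, MAX and MXD network was followed across 2 human cell lines in which Wnt signaling had been removed, switched on or deprived of a coactivator. It comprises 10 genes, MYC, MYCN, MYCL, MAX, MXD1, MXD3, MXD4, MXI1, MNT and MLX, and every probe whose RefSeq accession belongs to 1 of them was taken, whatever its signal. These were 21 probes in 30 spots per array, of 41000 probes in 43376 spots. Ls174T is a colorectal carcinoma line with stabilized β-catenin, and HEK293T is an embryonic kidney line whose Wnt pathway can be induced. Ls174T cells received siRNA at 15 nM for 72 h against β-catenin (si-b-catenin), MLLT10/AF10 (si-MLLT10), BRG1 (si-BRG1) or p300 (si-P300), or si-control. HEK293T cells received si-control, si-MLLT10, si-DOT1L, si-BRG1 or si-P300 at the same concentration, were then induced with Wnt3A for 9 h, and si-control cells were also kept in control medium. Each condition is 1 culture. The β-catenin-depleted and si-control RNAs of Ls174T were hybridized against each other on a pair of arrays with the dyes exchanged, as the labels give it, which measures the same RNA again, and the 10 other RNAs were each hybridized against universal human reference RNA. The study's methods name reference RNA for every array. Over the pair 0 of 5 HEK293T markers were well-measured (signal over 2 times local background in either channel), and all 5 were on the Ls174T reference arrays. The channels of the pair were taken from the labels, and the β-catenin values rest on them. No test between conditions was possible, and a value in parentheses after a change is the error of the extraction program on the log2 scale.

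MYC, MYCN and MYCL are basic helix-loop-helix leucine zipper proteins that bind E-box DNA as dimers with MAX and activate genes of growth and proliferation. MXD1, MXD3, MXD4, MXI1 and MNT also dimerize with MAX, recruit SIN3 and histone deacetylases to the same sites, and repress. MXD1 and MXD4 are typically found in differentiating cells, where MYC is low. MLX is a MAX-like partner that pairs with MondoA (MLXIP) and ChREBP (MLXIPL), and with some MXD proteins, in the response to glucose. In the intestinal crypt and in colorectal cancer MYC is a classical target of TCF4/β-catenin.

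The siRNA targets checked the labels. CTNNB1 stood at -2.70 in β-catenin-depleted cells as a log2 change, and MLLT10, SMARCA4 (BRG1) and DOT1L at -1.42 to -3.96 in their knockdowns, all on leading probes, which are the probes of a gene with the highest mean signal. EP300 was not well above background in si-P300 cells of either line and was so in the controls. AXIN2, a general Wnt target, was at +1.08 after Wnt3A. All 8 colorectal markers were well above background on the 4 Ls174T reference arrays, and the epithelial genes VIL1 and CEACAM5 were not on any HEK293T array. Of the 5 HEK293T markers on the array, CDH2 and NEFL were not well above background on any Ls174T array. The median sample signal was 1.66 to 3.47 times the local background, and the 12 arrays lie on 5 slides. The si-control Wnt3A array of HEK293T lies alone on its slide, and the si-BRG1 and si-P300 arrays of Ls174T lie on another slide than their control, so slide and condition cannot be told apart in those comparisons. In RNA of whole cultures, a change in the make-up of the cells and a change in the RNA of each cell cannot be told apart.

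MYC itself was measured by 1 probe printed in 10 spots, A_23_P215956. Its level, as log2 of sample over reference RNA, was 0.07 in si-control Ls174T cells, -0.21 in si-MLLT10, -0.53 in si-BRG1, and -1.19 in si-P300 cells. In HEK293T cells it was -0.64 in control medium, -0.88 after Wnt3A, and, all in Wnt3A, -0.68 in si-MLLT10, -0.49 in si-DOT1L, -0.65 in si-BRG1, and -0.59 in si-P300 cells. The 4 Ls174T arrays thus covered the whole range of MYC, and the 6 HEK293T arrays lay together inside it. The SD between spots within an array was 0.01 to 0.03, far below the steps between the Ls174T arrays. With the larger program error of 0.20 to 0.23 per array, none of the 9 steps between neighbors in the order of the 10 levels exceeded its combined error. That order places HEK293T arrays between Ls174T arrays, which splits the steps of Ls174T. Against si-control in Ls174T cells, si-BRG1 at -0.60 (0.29) and si-P300 at -1.26 (0.31) exceeded their combined error. The si-MLLT10 difference of -0.28 (0.29) did not. The reference channel of MYC, scaled within each array, varied only from 4.42 to 4.56 on the log2 scale. The other MYC probe, A_24_P38363, was not well-measured on any array, which means that neither channel exceeded 2 times its local background, and no change is given for it.

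**Figure D1:**
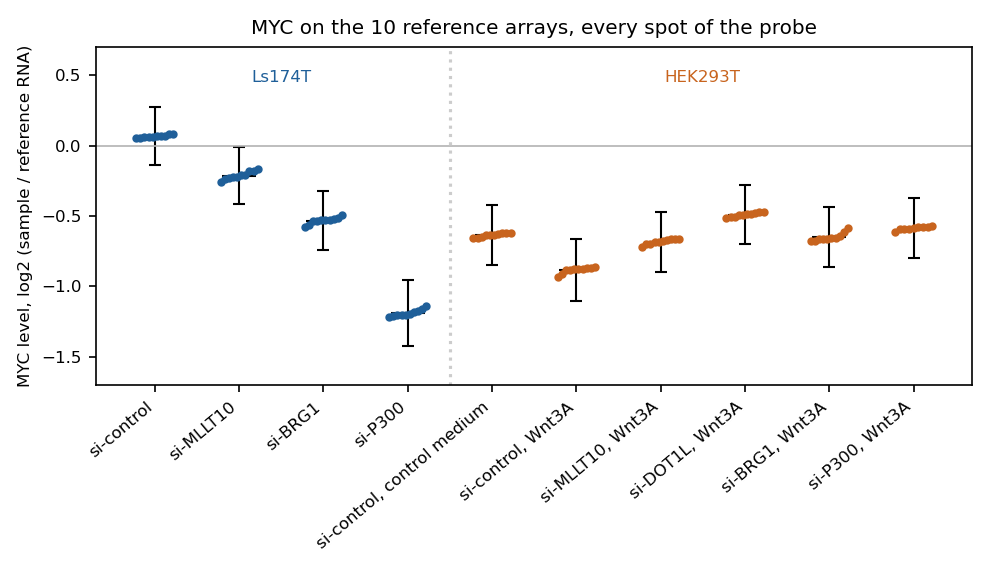
MYC level as log2 of sample over reference RNA (y axis) on the 10 reference arrays (x axis, Ls174T in blue, HEK293T in orange). Points are the spots of the MYC probe, sorted within an array, the dash is their mean and the bar is the program error. MYC runs from 0.07 to -1.19 in Ls174T cells and from -0.49 to -0.88 in HEK293T cells.

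After β-catenin depletion in Ls174T cells, MYC was lower and MXD1 was higher past 2-fold, while the MXD4 and MLX probes had values above 0 short of it. MYC read -1.31 on the array with the depleted RNA in Cy5 and -1.0004 on the array with it in Cy3. Both orientations thus put MYC past 2-fold, the second only just, and their mean was -1.15 (0.16), a 2.23-fold decrease in level. MXD1, the first described MAX dimerization repressor, read 1.68 and 1.87 on its A_23_P408094 probe, with a mean of 1.78 (0.19) or 3.43-fold. With normexp background correction and loess this mean was smaller, at 1.31, and still past 2-fold. The second MXD1 probe, A_24_P379750, read 1.46 on the first array and was not well-measured on the second, where neither channel stood above background. Of the 21 member probes, 12 probes of 7 genes were well-measured on both arrays, of which MXD1 was past 2-fold upward and MYC downward, 2 of 12 against 5.66% of all probes. The median of the 12 probes was 0.39, and that of all probes was -0.02, but MXD4 and MLX give 6 of the 12. With the leading probe of each gene alone, 6 genes were measured, 3 above and 3 below 0, and their median was -0.02.

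MXD4, another MXD repressor of growth, was above 0 on all 3 probes, at 0.86 (0.16), 0.57 (0.17) and 0.36 (0.17). Its leading probe, A_23_P259490, read 0.91 and 0.81 on the arrays of the pair. MLX was above 0 on all 3 probes as well, at 0.58 (0.15), 0.42 (0.15) and 0.57 (0.15), although 2 of its probes differed between the arrays, with 0.65 against 0.20 and 0.39 against 0.75. None of these 6 probes passed 2-fold, and each exceeded its program error, as did 68.4% of all probes in this comparison. MXI1 stood at 0.16 (0.15) and MAX, the shared partner, at -0.20 (0.13) on its leading probe. In the same cells 7 of the 8 colorectal markers were measured and all 7 were above 0. Their median was 1.65, against -0.02 for all probes. Of them 4 were past 2-fold and higher, against 4.48% of all probes. They were led by KRT20, a keratin of differentiated colonocytes, at 4.78 (0.35), CEACAM5 at 3.32 (0.26), and the goblet cell mucin MUC2 at 1.67 (0.18). The part of such markers in the MXD values was not tested.

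**Figure D2:**
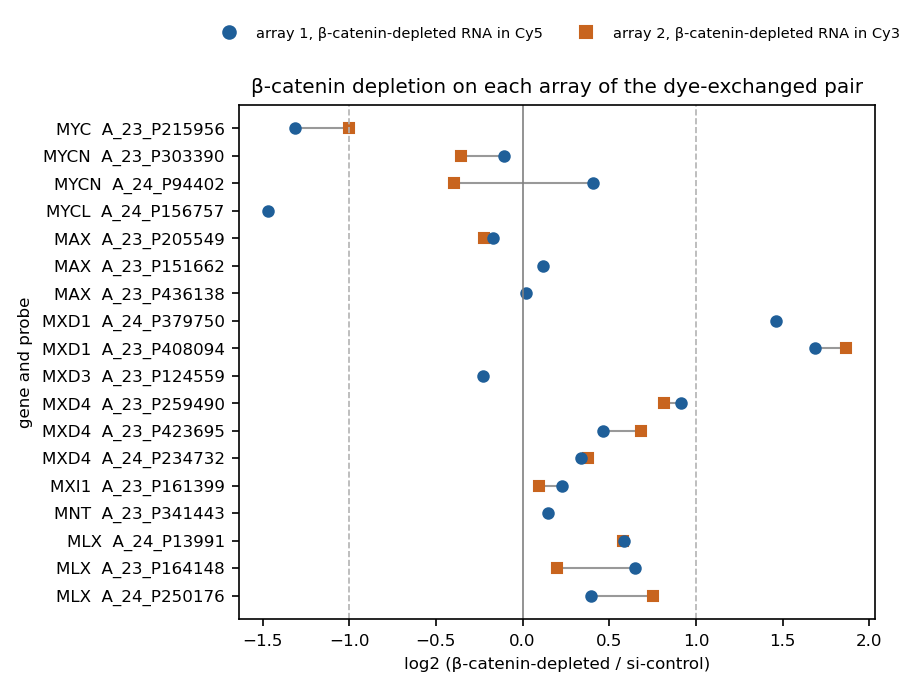
Change after β-catenin depletion in Ls174T cells, as log2 of β-catenin-depleted over si-control RNA (x axis), for each member probe measured on at least 1 array (y axis). Circles and squares are the arrays of the dye-exchanged pair and dashed lines mark 2-fold. MYC lies at -1.31 and -1.0004, the MXD1 probe A_23_P408094 at 1.68 and 1.87, and the MYCN probe A_24_P94402 at 0.40 and -0.40.

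The promoters of MXD1, MXD4 and MLX are shown because these members had the largest values opposite to MYC after β-catenin depletion. They are from RefSeq on GRCh38.p14, each 300 bases long, from 250 bases before to 50 after the start and read in the direction of the gene, with the E-box CACGTG in capitals. They lie at chr2:69914859-69915158 on the plus strand (MXD1), chr4:2262060-2262359 on the minus strand (MXD4), and chr17:42566850-42567149 on the plus strand (MLX).
MXD1: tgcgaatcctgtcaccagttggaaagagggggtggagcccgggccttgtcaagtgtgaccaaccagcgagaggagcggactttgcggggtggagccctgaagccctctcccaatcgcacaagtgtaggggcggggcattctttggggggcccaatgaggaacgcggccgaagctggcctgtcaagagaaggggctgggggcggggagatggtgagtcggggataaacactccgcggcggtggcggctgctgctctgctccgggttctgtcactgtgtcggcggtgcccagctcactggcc
MXD4: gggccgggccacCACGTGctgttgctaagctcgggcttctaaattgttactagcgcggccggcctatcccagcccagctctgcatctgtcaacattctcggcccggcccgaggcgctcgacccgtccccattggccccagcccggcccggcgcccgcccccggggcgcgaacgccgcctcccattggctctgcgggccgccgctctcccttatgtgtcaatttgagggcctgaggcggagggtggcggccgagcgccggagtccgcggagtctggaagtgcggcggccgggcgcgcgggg
MLX: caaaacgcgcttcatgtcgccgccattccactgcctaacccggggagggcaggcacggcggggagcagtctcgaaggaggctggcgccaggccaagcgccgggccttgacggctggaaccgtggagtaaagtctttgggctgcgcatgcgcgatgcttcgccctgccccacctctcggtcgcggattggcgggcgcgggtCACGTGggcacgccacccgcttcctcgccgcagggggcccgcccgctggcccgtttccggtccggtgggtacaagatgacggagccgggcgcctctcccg
The E-box is its own reverse complement, so both strands are read at once. It begins 238 bases before the start of MXD4 and 50 bases before that of MLX, and it was absent from the MXD1 window. Among 12 promoters of 9 members in the table it was found in 3, the third being MNT at 193 bases before the start, and 7.26% of 35116 promoters hold it. The TCF motif CTTTGAT, or ATCAAAG on the other strand, was in 0 of the 12 and in 2.62% of all promoters. MYC has no entry in the table, so its promoter was not searched for either motif. The motifs do not overlap.

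MYCN, the neuronal MYC paralog, gave different values on its probes. The leading probe A_23_P303390 stood at -0.23 (0.15) after β-catenin depletion, with -0.11 and -0.36 on the arrays of the pair. The A_24_P94402 probe read 0.40 on the first array and -0.40 on the second, so its sign followed the dye and its mean was 0.00 (0.15). MYCL, the third paralog, read -1.47 on the first array and was not well-measured on the second, where the si-control RNA was well above background and the β-catenin-depleted RNA was not. With the first array alone, 4 of 18 measured member probes passed 2-fold, namely both MXD1 probes upward and MYC and MYCL downward, against 5.93% of all probes.

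Depletion of p300, a histone acetyltransferase, in Ls174T cells was accompanied by the lowest MYC level of the 10 reference arrays. MYC differed from si-control by -1.26 (0.31), or 2.39-fold, and the A_24_P94402 probe of MYCN by -1.16 (0.33), or 2.23-fold. These 2 of 18 measured member probes were past 2-fold and both were lower, against 5.76% of all probes. MYCL also lay lower, at -0.75 (0.45), and the other MYCN probe at -0.21 (0.33). The MYCN probe that passed had levels of -0.47 in si-control, -0.32 in si-MLLT10, -0.22 in si-BRG1, and -1.62 in si-P300 cells, so 1 of its 4 Ls174T arrays stood apart. The repressors were mixed, with the MXD4 probes at 0.22 to 0.29, MXD3, an MXD protein of cycling cells, at 0.29 (0.29), MXI1 at -0.42 (0.29), and MXD1 at -0.03 (0.29) and -0.64 (0.32) on its probes. The member median was -0.17 and that of all probes 0.02. In the same cells 7 of the 8 colorectal markers were measured. All 7 were below 0, from -0.01 to -0.89, with a median of -0.42 against 0.02 for all probes. None passed 2-fold, against 5.76% of all probes. Of the 5 HEK293T markers NEFM, a neurofilament, passed 2-fold upward, against 4.09% of all probes. Its si-control signal was not well above background, so no fold is given. The part of these markers in the MYC values was not tested.

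Depletion of BRG1, the ATPase of SWI/SNF chromatin remodeling complexes, gave MYC a smaller difference of -0.60 (0.29) in Ls174T cells. Of 18 member probes 0 were past 2-fold, against 5.21% of all probes. MYCL was at 0.40 (0.50), and the A_24_P94402 probe of MYCN at 0.25 (0.29), both above 0 where p300 depletion gave values below 0. MXI1 was at -0.36 (0.29) and the MXD1 probes at -0.25 (0.29) and -0.39 (0.32). Of the 8 colorectal markers 6 were below 0, with a median of -0.27 against -0.01 for all probes. Of the 8, 1 was lower past 2-fold, KRT20 at -2.21 (0.57), against 1.46% of all probes. NEFM again passed upward, against 3.75% of all probes, with si-control not well above background. The si-BRG1 and si-P300 arrays share a slide and can be compared without the control. There MYC was 0.66 (0.31) higher in si-BRG1 than in si-P300 cells, the MYCN probe A_24_P94402 1.41 (0.33) and MYCL 1.15 (0.47) higher. These last 2 of 18 probes were past 2-fold, against 2.34% of all probes.

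Depletion of MLLT10/AF10, the partner of the histone methyltransferase DOT1L, left the network nearest to its control in Ls174T cells. Of 18 member probes 0 were past 2-fold, against 1.75% of all probes, and 0 exceeded their program error, against 7.86% of all probes. MYC was at -0.28 (0.29), the lowest of the 18, and both arrays lie on 1 slide. The 3 knockdowns share the si-control array, so its error enters all of them.

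**Figure D3:**
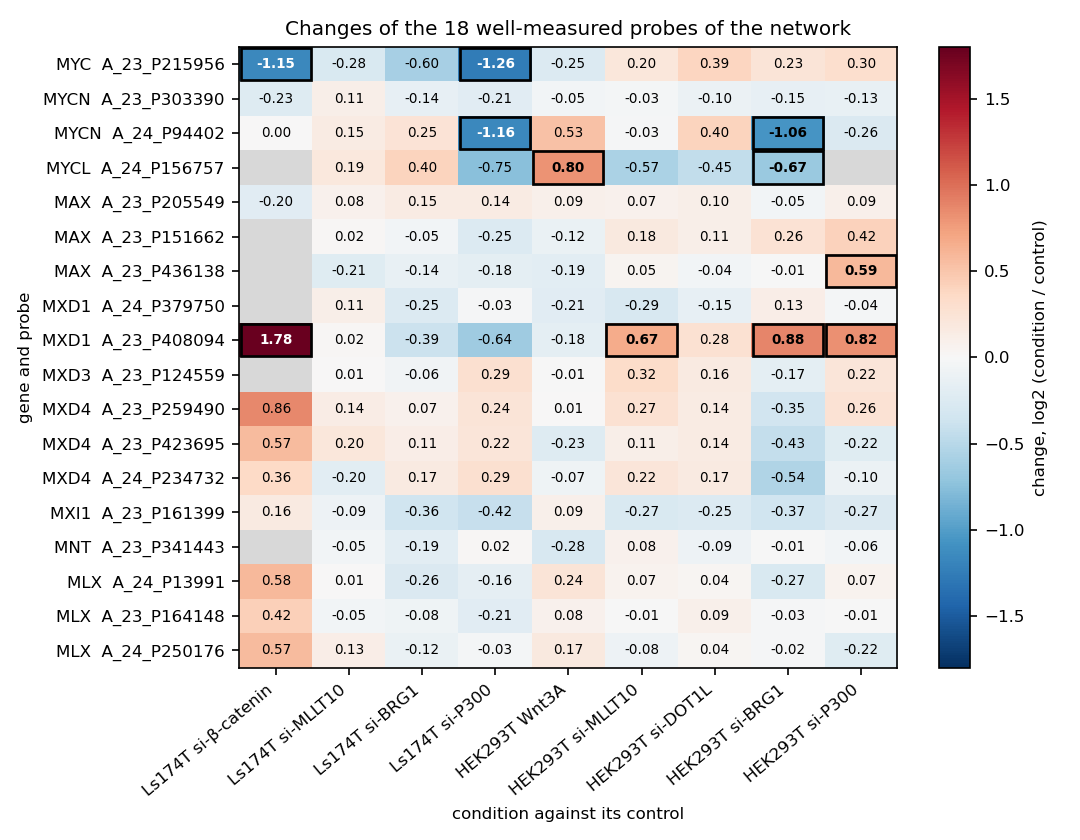
Changes of the 18 member probes well-measured in at least 1 comparison (y axis) in the 9 comparisons with a control (x axis), as log2 of condition over control. Numbers give the change, frames mark values past 2-fold (Ls174T) or 1.5-fold (HEK293T), and gray cells were not well-measured. MYC is framed after β-catenin (-1.15) and p300 (-1.26) depletion in Ls174T cells, and is not framed in HEK293T cells.

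In HEK293T cells MYC did not pass 1.5-fold after Wnt3A. Its change was -0.25 (0.31) while AXIN2 stood at 1.08 (0.30). The member past 1.5-fold was MYCL, with levels of 1.37 in control medium and 2.17 after Wnt3A, a difference of 0.80 (0.41) or 1.75-fold. It was 1 of 18 measured probes, against 6.54% of all probes. The other values were small, with MNT, a broadly expressed MAX-binding repressor, at -0.28 (0.30), MLX at 0.24 (0.30) on its leading probe, and MAX at 0.09 (0.29). With normexp background correction and loess together, MYCL was at 0.43 and no member passed 1.5-fold.

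The HEK293T knockdowns were all set against the si-control Wnt3A array, which also enters the Wnt3A comparison with the opposite sign. That array had the lowest level of the 6 for MYC and for the MXD1 probe A_23_P408094, and the highest for MYCL and MXI1. With MLLT10/AF10, DOT1L, BRG1 or p300 depleted, MYC was at 0.20 (0.31), 0.39 (0.30), 0.23 (0.31) and 0.30 (0.30), all above 0 and all within 1.5-fold. MYCL was at -0.57 (0.41), -0.45 (0.41) and -0.67 (0.41) in the first 3, and was not well-measured in si-P300 cells. The si-MLLT10 and si-DOT1L arrays share a slide with the control medium array. Against it, MYC was at -0.05 (0.30) and 0.14 (0.30), and MYCL at 0.23 (0.39) and 0.35 (0.39). The MXD1 probes disagreed there in si-MLLT10 cells, at 0.49 and -0.50. Of 18 probes, 0 were past 1.5-fold in si-MLLT10 cells in this comparison, against 7.74% of all probes. In si-DOT1L cells 1 was, the MYCN probe A_24_P94402 at 0.93 (0.67), against 5.76% of all probes.

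MXD1 was the member most often past 1.5-fold in HEK293T cells, on 1 of its probes. The A_23_P408094 probe had levels of -0.56 in control medium, -0.74 after Wnt3A, -0.07 in si-MLLT10, -0.47 in si-DOT1L, 0.14 in si-BRG1, and 0.08 in si-P300 cells. Against the Wnt3A control this gave 0.67 (0.33), 0.28 (0.33), 0.88 (0.32) and 0.82 (0.33). The leading MXD1 probe, A_24_P379750, gave -0.29 (0.31), -0.15 (0.31), 0.13 (0.30) and -0.04 (0.31) on the same arrays, so the probes of this gene disagreed. On the A_23_P408094 probe the reference signal was 131 on the Wnt3A control array and 91.3 to 117 on the 4 knockdown arrays, while the sample signal was 78.4 and 84.5 to 125. These signals are not scaled between arrays, and their part in the MXD1 values was not tested. With the sample channel alone the values were 0.29, -0.01, 0.44 and 0.30, and none passed 1.5-fold.

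**Figure D4:**
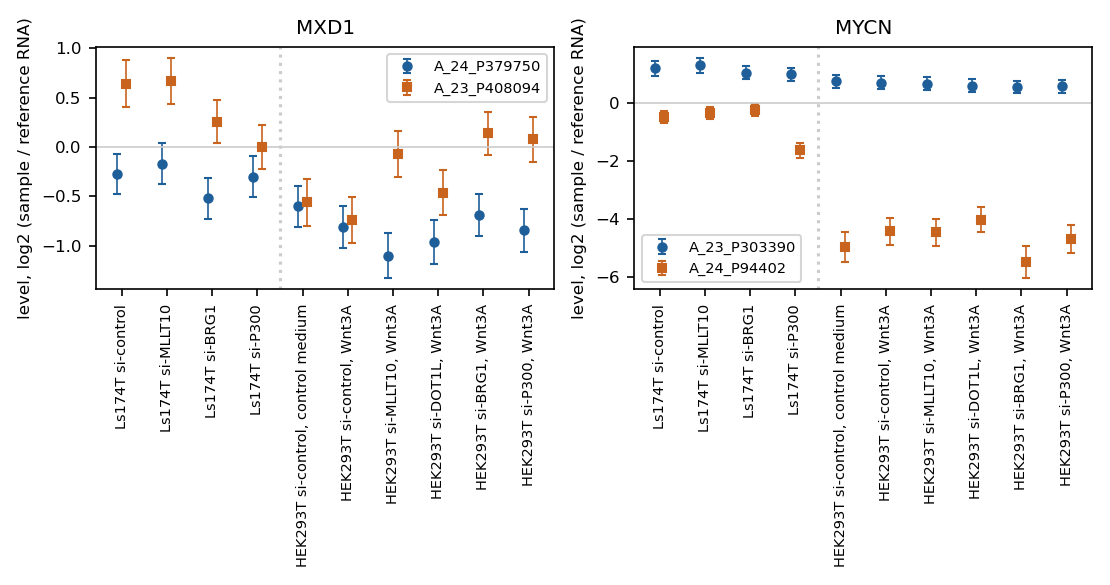
Levels as log2 of sample over reference RNA (y axes) on the 10 reference arrays (x axes) for both probes of MXD1 (left) and of MYCN (right), with the program error as bars. The MYCN probe A_24_P94402 lies between -0.22 and -1.62 in Ls174T cells and between -4.01 and -5.48 in HEK293T cells, while A_23_P303390 lies between 0.57 and 1.31 on all 10 arrays.

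Depletion of MLLT10/AF10 in HEK293T cells put 1 of 18 member probes past 1.5-fold, the MXD1 probe, against 7.32% of all probes. With the sample channel alone it was 0 higher and 2 lower, against 17.3% of all probes. Depletion of DOT1L put 0 of 18 past 1.5-fold, against 5.62% of all probes.

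Depletion of BRG1 in HEK293T cells was the broadest of these comparisons, with 22.0% of all probes past 1.5-fold. Of 18 member probes 1 was higher, MXD1, and 2 were lower, the A_24_P94402 probe of MYCN at -1.06 (0.73) and MYCL at -0.67 (0.41). The split was 0 higher and 1 lower with normexp and loess, against 13.8% of all probes, and 0 higher and 5 lower with the sample channel alone, against 37.1%. MXD4 lay below 0 on all 3 probes, at -0.35 (0.32), -0.43 (0.31) and -0.54 (0.31), short of 1.5-fold. The same 3 probes stood at 0.07 to 0.17 after BRG1 depletion in Ls174T cells, within their program error, and the difference between the lines was not tested. MXI1, which lies below 0 after every HEK293T knockdown, was at -0.37 (0.29) here and at -0.25 to -0.27 in the other 3. All of these values share the Wnt3A control, which had the highest MXI1 level of the HEK293T arrays, at -0.20. With the sample channel alone MXI1 stood at 0.22 in that control and at -0.81 in si-BRG1 cells. It stood above the control in si-MLLT10, si-DOT1L and si-P300 cells, at 0.32, 0.37 and 0.36, so that sign depended on the processing. In all, 14 of the 18 probes and 8 of the 10 leading probes were below 0, against 48.4% of all probes.

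Depletion of p300 in HEK293T cells gave 2 of 17 member probes past 1.5-fold, both higher, against 12.1% of all probes. They were MXD1 and the A_23_P436138 probe of MAX at 0.59 (0.32). This probe carries the accession of another MAX transcript than the leading probe, and the leading probe was at 0.09 (0.29) and the third, A_23_P151662, at 0.42 (0.31). With the sample channel alone the split was 0 higher and 2 lower, against 23.2% of all probes, and with normexp and loess 0 and 0, against 4.19%. The si-BRG1 and si-P300 arrays again share a slide, where MYC differed by -0.06 (0.30). In that comparison 3 of 17 probes were lower in si-BRG1 cells, MYCN A_24_P94402 at -0.80 (0.74), MXD4 A_23_P259490 at -0.61 (0.33) and MAX A_23_P436138 at -0.59 (0.32), against 20.2% of all probes.

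Between the lines, si-control Ls174T cells were set against si-control HEK293T cells in control medium. Each line is 1 array here and the arrays lie on different slides, so slide and line cannot be told apart. MYC was higher in Ls174T by 0.70 (0.29). Of 18 member probes 4 were past 2-fold, 3 of them toward Ls174T and 1 toward HEK293T, against 32.9% of all probes. The largest was MYCN on A_24_P94402 at 4.48 (0.55) or 22.3-fold, while its leading probe gave 0.45 (0.33). MYCL was higher by 1.45 (0.44), and MXD1 by 1.21 (0.34) on A_23_P408094 and 0.33 (0.29) on its leading probe. MXD4 differed by -1.96 (0.32) on A_23_P423695, and by -0.03 (0.33) and -0.20 (0.32) on its other probes. The probes of MYCN, MXD1 and MXD4 therefore gave different sizes for the same genes, and the files do not say which part of each transcript a probe reads. MAX was at -0.57 (0.29) on its leading probe and at 0.39 (0.31) and 0.62 (0.33) on the others.

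Several leading probes did not pass a threshold in any comparison with a control, although other probes of MYCN, MAX and MXD1 did. MNT has 1 probe. The leading probe of MYCN ranged from -0.23 to 0.11 over the 9 comparisons, that of MAX from -0.20 to 0.15, and MNT from -0.28 to 0.08 over the 8 in which it was measured. MNT never exceeded its program error in these, and neither did the leading MXD1 probe in the 8 in which it was measured, although it read 1.46 on the first β-catenin array. The other probes of MYCN, MAX and MXD1 that passed a threshold are given above. Of the second probes, that of MXD3, A_24_P417706, and that of MYCL, A_23_P160668, were too dim to be well-measured in any of the 9 comparisons. In total 18 of the 21 member probes gave a value in at least 1 comparison.

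Genes regarded as activated by MYC, listed from general knowledge, were below 0 more often than above where MYC was lowest. After β-catenin depletion 31 of the 34 measured were below 0, with a median of -0.35, against 51.7% of all probes below 0 and a median of -0.02. Of the 34, 0 were past 2-fold. The arrays of the pair gave 31 of 35 and 31 of 34 below 0. Their medians were -0.30 and -0.39, against -0.04 and -0.004 for all probes. The lowest were PPAT, an enzyme of purine synthesis, at -0.92, TERT, the telomerase reverse transcriptase, at -0.77, and CDC25A, a cell cycle phosphatase, at -0.75, while the ribosome biogenesis genes NCL and NPM1 were at -0.26 and -0.41. After p300 depletion in Ls174T cells 30 of 35 were below 0, with a median of -0.22, against 47.8% and 0.02 for all probes, and again 0 were past 2-fold. With the sample channel alone this count was 24 of 35, and the share of all probes under that setting is not given here. After BRG1 and MLLT10/AF10 depletion the medians were -0.06 and -0.04, with 21 and 20 of 35 below 0, against a median of -0.01 for all probes in both. Scaling the sample channel alone turned the BRG1 median to 0.07. The list was not compared with other genes of the same signal.

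In HEK293T cells the same list lay above 0 in 29 of 35 genes after Wnt3A, with a median of 0.13, while MYC was at -0.25. All probes were above 0 in 47.9%. The gene past 1.5-fold was TFRC, the transferrin receptor, which was lower at -0.89 (0.36). Against the control medium array on their own slide, 23 of 35 were above 0 in si-MLLT10 cells, with a median of 0.05, and 27 of 35 in si-DOT1L cells, with a median of 0.12. The medians of all probes were 0.001 and -0.01 there. BRG1 depletion put 3 of 35 past 1.5-fold, a smaller share than the 22.0% of all probes. They were PTMA higher at 0.61 (0.29), and TOMM40, the mitochondrial import pore, and SHMT2, a mitochondrial folate enzyme, lower at -0.96 (0.31) and -0.68 (0.29), with a median of 0.07 that turned to -0.10 with the sample channel alone. In si-P300 cells the cell cycle gene CCND2 was lower at -0.75 (0.32).

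**Figure D5:**
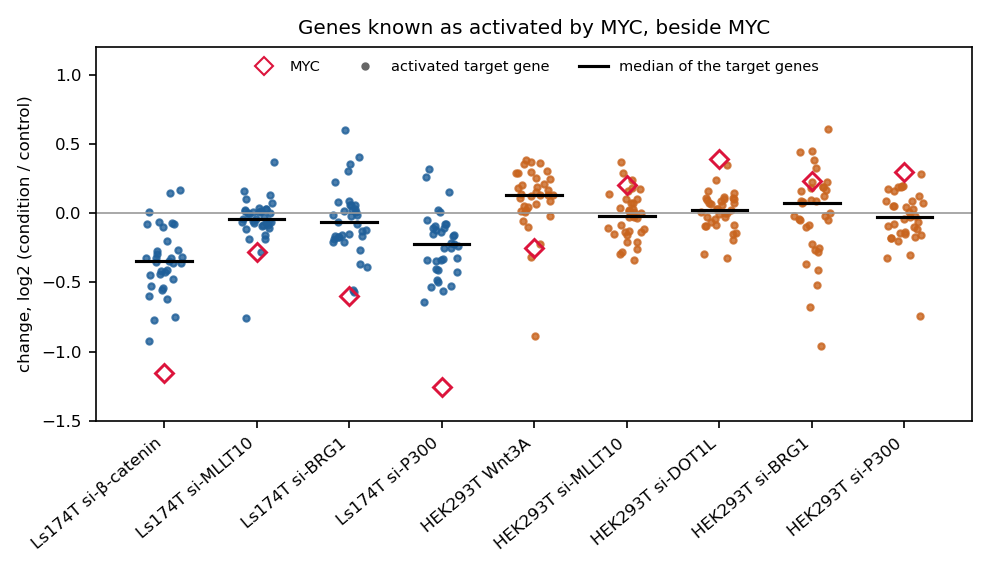
Changes of up to 35 genes regarded as activated by MYC (points, Ls174T in blue, HEK293T in orange) with their median (bar) and MYC (diamond), as log2 of condition over control (y axis) in the 9 comparisons (x axis). The median of the list was -0.35 after β-catenin and -0.22 after p300 depletion in Ls174T cells, and 0.13 after Wnt3A in HEK293T cells.

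Genes regarded as repressed by MYC had a median of 0.45 after β-catenin depletion, with 3 of 10 past 2-fold and higher and 0 lower, against 4.48% and 1.17% of all probes. They included KLF6, a zinc finger tumor suppressor, at 1.94 (0.19) and NDRG1, a differentiation gene, at 1.43 (0.17). The third was the cyclin-dependent kinase inhibitor CDKN2B, whose si-control signal was not well above background and for which no fold is given. After p300 depletion in Ls174T cells, where MYC was at -1.26, 0 of 10 were past 2-fold, against 5.76% of all probes. The median was 0.01, against 0.02 for all probes. After MLLT10/AF10 depletion in Ls174T cells 1 of 10 was past 2-fold and higher, against 0.756% of all probes. It was not well above background in both samples, so no fold is given. NDRG1 was lower after BRG1 depletion in both lines, at -1.20 (0.45) in Ls174T and -0.82 (0.45) in HEK293T cells. BRG1 depletion in HEK293T cells put 4 of 10 higher, against 10.4% of all probes, with CDKN2B at 0.79 (0.30) and CDKN1A, the p21 inhibitor, at 0.78 (0.29). After Wnt3A 8 of the 10 were above 0, with a median of 0.15, against -0.01 for all probes. CDKN1B, the p27 inhibitor, was 1 of the 2 below 0 there, at -0.73 (0.31). After p300 depletion in HEK293T cells 9 of 10 were below 0, with a median of -0.19, against 0.01 for all probes. GADD45A, a stress response gene, was at -0.96 (0.30) there.

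The MondoA and MLX targets TXNIP and ARRDC4, arrestin-like regulators of glucose uptake, were measured beside MLX. After BRG1 depletion TXNIP was at 1.09 (0.36) in Ls174T and 0.97 (0.64) in HEK293T cells, and ARRDC4 at 0.63 and 1.29 (0.30). ARRDC4 was also higher after p300 depletion in HEK293T cells, at 1.00 (0.30), while TXNIP was at -0.04 there. MLX was then between -0.27 and 0.07 on its leading probe, and the MondoA gene MLXIP between -0.16 and -0.03. Where MLX was highest, after β-catenin depletion, TXNIP was at 0.74 and ARRDC4 at 0.41, both within 2-fold, and MLXIP at -0.50.

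Of the other partners of the network, among them MGA, SIN3A, HDAC1 and HDAC2, 10 were on the array. In the 9 comparisons 1 passed a threshold, MLXIPL at -0.63 (0.33) after BRG1 depletion in HEK293T cells, where 22.0% of all probes did. Of 13 cofactors of the MYC protein 12 were measured in HEK293T cells. After Wnt3A 1 of these passed 1.5-fold, HCFC1, higher at 0.60 (0.34), against 6.54% of all probes. After BRG1 depletion 1 did, SMARCB1, a subunit of the BRG1 complexes, lower at -0.80 (0.39), against 22.0%. Of 11 genes that control the turnover of the MYC protein, 3 passed 1.5-fold, all after BRG1 depletion in HEK293T cells, where 22.0% of all probes did, so the share of this list lay near that of all probes. They were FBXW7, the ubiquitin ligase subunit that marks MYC for degradation, at 0.70 (0.32), PPP2R5A, a phosphatase subunit, at 0.63 (0.29), and the kinase PIM1 at -0.76 (0.38).

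The genes whose levels followed MYC most closely over the 10 reference arrays, after the mean of each line was subtracted, were LIAS (r = 0.961), NUDCD1 (0.957), GHSR (0.939), CABP4 (0.933) and MRGBP (0.931), out of 12639 genes. These r values are Pearson correlations, and the arrays share the reference RNA and differ mainly along the 4 Ls174T arrays. LIAS, the lipoic acid synthase of mitochondria, had levels of 0.76, 0.67, 0.31 and -0.23 in control, MLLT10/AF10-, BRG1- and p300-depleted Ls174T cells, the order that MYC showed. LIAS was picked for its likeness to MYC on these same arrays, so the shared order is no separate result. Among the 8 other members with a leading probe in this comparison, which leaves out MYCL, those of MYCN and MXI1 had the highest r with MYC, 0.55 each, at percentiles 90.6 and 90.5 of all genes, and those of MAX and MXD3 the lowest, at -0.35 and -0.36.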

How the data were processed

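Dual-color Agilent Whole Human Genome arrays were hybridized with RNA from Ls174T and HEK293T cells. The authors scanned the slides and extracted each spot with the Agilent Feature Extraction program, version 10.5.1.1 in the file headers and 8.5.1.1 in the labels. The deposited intensity columns hold the median signal and local background of each channel and the processed signal, background-subtracted and dye-normalized within the array. The deposited log10 ratios are processed Cy5 over processed Cy3, each with the program's error. The deposited table of values holds the same log10 ratios, with 1 array of the β-catenin pair turned. From these files, ratios were turned to sample over the other channel and multiplied to the log2 scale. Spots marked as outliers were left out, and a spot was kept where either channel exceeded 2 times its local background on every array compared, as in the study's methods. Spots of a probe were averaged. Thresholds were 2-fold in Ls174T cells and 1.5-fold in HEK293T cells.

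The files give RefSeq accessions, and 27612 of 29084 features with one were named through a RefSeq gene table. The leading probe of a gene is the one with the highest mean signal over the 12 arrays. Named from the gene lists are, per comparison, up to 2 genes with the largest rise and 2 with the largest fall past the threshold on leading probes well above background in both samples, and any other gene named for a smaller value was chosen after its values were seen. The members and gene lists were chosen with earlier results of these data known.

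With 1 culture per condition no test was made, and the error beside each change joins the program errors of its arrays in quadrature and leaves out the spread between cultures. The number of arrays limits the precision. The alternatives were normexp background correction (offset 50) with loess in limma 3.58.1 (R 4.3.3), the deposited value table, the sample channel alone scaled to its 75th percentile, other filters on signal, outlier spots kept, the median of spots, the thresholds exchanged between lines, and each array of the pair left out. The other steps used Python 3.11.15 with pandas 2.3.3 and numpy 2.4.6. The step that compares arrays was first tested with simulated arrays, for part of the comparisons, and the remaining steps were not tested in this way.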

Additional observations from a re-analysis of the deposited data

Results flagged for a closer look

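The MXD1 probe A_23_P408094 moved in opposite directions in the cell lines, beyond the program error in both, and the difference was not tested. After BRG1 depletion it was at -0.39 (0.32) in Ls174T and 0.88 (0.32) in HEK293T cells. After p300 depletion it was at -0.64 (0.32) in Ls174T and 0.82 (0.33) in HEK293T cells. It was 1 of 18 member probes compared for BRG1 and 1 of 17 for p300, and 0 of 18 behaved this way after MLLT10/AF10 depletion. The share of all probes that behaved this way was not counted, so these counts cannot be set against it. The other MXD1 probe stood at -0.25 and 0.13 after BRG1 depletion and at -0.03 and -0.04 after p300 depletion. With the sample channel alone, A_23_P408094 was at 0.13 and -0.08 in Ls174T and at 0.44 and 0.30 in HEK293T cells for BRG1 and p300.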

How the results depend on the processing

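The MYC changes kept their sign in all 9 comparisons with a control under every alternative run, and their side of the threshold except after BRG1 depletion in Ls174T cells, where -0.60 passed once the threshold was 1.5-fold. The β-catenin value ranged from -1.31 to -1.0004 when 1 array of the pair was left out, the p300 value in Ls174T cells from -1.28 to -1.24 over all alternatives, and the Wnt3A value in HEK293T cells from -0.29 to -0.23. The counts of member probes past the threshold depended more on the processing, and the share of all probes past it changed as well. With normexp and loess the counts were 0 for Wnt3A (1 in the report), 0 for MLLT10/AF10 (1), 1 for BRG1 (3) and 0 for p300 (2) in HEK293T cells. The shares of all probes were 2.23%, 1.59%, 13.8% and 4.19%, in that order. With the sample channel alone the counts were 2 for Wnt3A, 2 for MLLT10/AF10, 1 for DOT1L (0) and 5 for BRG1. All probes gave 20.1%, 17.3%, 15.5% and 37.1% there. With both channels over background the counts were 0 for Wnt3A, 0 for MLLT10/AF10 and 1 for BRG1, against 2.84%, 2.98% and 17.7%. Without a filter on signal, 21 member probes were counted. The counts were then 2 for MLLT10/AF10 (0), 1 for BRG1 (0) and 4 for p300 (2) in Ls174T cells, against 7.39%, 11.9% and 11.4%. In HEK293T cells they were 4 for MLLT10/AF10 and 1 for DOT1L, against 18.2% and 15.8%. At 1.5-fold in Ls174T cells the counts were 1 for BRG1 and 4 for p300, against 12.6% and 14.9% of all probes. At 2-fold in HEK293T cells they were 0 for Wnt3A, 0 for MLLT10/AF10, 1 for BRG1 and 0 for p300. All probes gave 1.71%, 2.36%, 6.66% and 3.97% there. Leaving out the first array of the pair gave 2, against 7.08% of all probes, and leaving out the second gave 4, against 5.93%. Of 1029 values of single probes under an alternative, 63 moved by more than the program error, 53 of them with the sample channel alone. The cause was not tested. The sample channel alone shifted the median of all probes by up to -0.13 in HEK293T cells. The alternatives for the values between lines, within slides and of gene lists were chosen after seeing the data. No paired analysis was possible because the groups compared share fewer than 2 replicate numbers. Dim probes, namely MYCL and the A_24_P94402 probe of MYCN in HEK293T cells, carry the largest program errors.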
